A study of Mus musculus with 9 samples.

Results

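The 9 genes described here encode subunits of voltage-gated calcium channels: the pore genes Cacna1s, Cacna1c and Cacna1h, the α2δ genes Cacna2d1 and Cacna2d4, the β genes Cacnb1 and Cacnb3, and the γ genes Cacng1 and Cacng6. They are 9 of the 26 subunit genes of the family and 9 of 55487 genes counted, and all 9 passed the filter on low counts that left 14851 genes for testing. Cacna2d4 was selected on its fall in Reloading, where it was among the genes with the largest drop from Control, so its values are given as a description with no test, and it is left out of the counts of changed genes in all 3 comparisons, which share the libraries of that choice. The other 8 genes were listed with earlier results of these libraries known. Expression was measured by sequencing polyadenylated RNA in 9 samples of gastrocnemius, a calf muscle, from male wild-type C57BL/6 mice (C57BL/6J in the study's text). The 4 Control samples came from mice in conventional cages, the 2 Unloading samples were taken at day 10 of hindlimb unloading, in which the hind legs are lifted off the floor, and the 3 Reloading samples at day 1 after weight bearing resumed, which followed 10 days of unloading. No transgene, deletion or drug was part of the design, and the ages of the mice were not given in the sources used here. The methods describe the unloading procedure for female mice, whereas the labels give male for every library.

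A voltage-gated calcium channel is built around a pore-forming α1 protein, which senses the membrane voltage and selects calcium. An extracellular α2δ protein and a cytoplasmic β protein bring the pore to the membrane and tune its opening, and in skeletal muscle a γ protein joins them. The skeletal muscle complex, known as the dihydropyridine receptor, sits in the transverse tubules, where the movement of its voltage sensor opens the ryanodine receptor of the sarcoplasmic reticulum and starts contraction.

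The sequences before the start sites of the main pore gene and the main α2δ gene are shown because the ratio between the transcripts of these partners in a single complex was lower in every Reloading library than in any other, as given with the ratios. They were taken from RefSeq (GRCm38.p6, 5′ to 3′, plus strand), stop before the first annotated base of the gene, and carry each E-box, the letters CANNTG bound by myogenic factors, in capitals. The Cacna1s stretch is at chr1:136052561-136052749 and the Cacna2d1 stretch at chr5:15934441-15934690.
Cacna1s: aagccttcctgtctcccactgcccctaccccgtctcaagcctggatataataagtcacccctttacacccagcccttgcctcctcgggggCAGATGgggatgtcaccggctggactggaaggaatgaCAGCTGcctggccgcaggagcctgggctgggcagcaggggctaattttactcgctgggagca
Cacna2d1: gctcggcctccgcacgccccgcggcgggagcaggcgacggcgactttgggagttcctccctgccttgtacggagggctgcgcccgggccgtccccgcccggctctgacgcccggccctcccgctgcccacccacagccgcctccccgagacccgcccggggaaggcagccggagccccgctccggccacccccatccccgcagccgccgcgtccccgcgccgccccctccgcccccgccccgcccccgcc
The Cacna1s stretch held 2 E-boxes and was 60.9% G or C, whereas the Cacna2d1 stretch held 0 E-boxes and was 82.4% G or C, against a median of 52.4% over all promoter windows. An E-box was present in 66.2% of the 32851 windows of 250 bases before a start site, so its presence is common. A promoter window was at hand for 6 of the 9 genes. The window of Cacng6 held 2 E-boxes, and none of the windows of these 6 genes held the other letters searched on either strand, which were TGANTCA (AP-1, in 6.75% of all windows), TGACGTCA (the CRE, in 1.55%), a MEF2-like motif (in 3.20%) and TATAAA (the TATA box, in 12.4%). These are matches of letters and do not show where a factor binds.

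Library totals ranged from 9252443 to 19612101 read pairs in genes, with pairs as the labels give them, whereas the methods describe single reads. Levels are given as counts per 1000000 read pairs (CPM) after scaling with TMM factors, and differences as log2 fold changes with their standard error (SE) and Benjamini-Hochberg adjusted p over all tested genes, with 0.05 as the threshold. Control 2 and Reloading 1 contained skin transcripts, with a summed CPM of 6 keratinocyte markers of 247 and 123 against 8.01 or less in the other 7 libraries. Of 9 skeletal muscle fibre markers, the defining genes of the labelled tissue, none was at 0 in any group, and their summed CPM was between 157013 and 170121 in Control, 159806 and 162282 in Unloading and 113499 and 126247 in Reloading. Of these 9 markers, 6 were lower in Reloading than in Unloading and 6 lower than in Control, beside 19.0% and 21.3% of all tested genes. In whole muscle, fewer cells of a type and less RNA per cell cannot be told apart. With library totals as the only scaling, the middle log2 fold change over the tested genes moved from 0.03 to 0.27 between Reloading and Unloading and from 0.01 to 0.25 between Reloading and Control. In that setting 35.4% of all tested genes were called higher and 7.34% lower in Reloading than in Unloading, and 40.6% higher and 9.99% lower than in Control. Calls of named genes other than Prkaca that were lost with it are given beside their values.

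Calculated per kilobase of exon (FPKM, the scale used wherever different genes are compared), 5 genes made up nearly all of the channel transcripts in Control muscle. Cacng1 had 206 ± 11.9 FPKM (SD, n = 4) and Cacna1s 160 ± 5.17, and their ranges did not meet. This gap rests on the full exon length of Cacna1s, part of which overlaps an antisense gene, as given with Cacna1s. Cacng6 followed with 80.9 ± 2.94, and Cacna2d1 with 48.0 ± 4.70 and Cacnb1 with 47.2 ± 2.36 did not differ beyond their spread. The other 4 genes were far lower. Cacna2d4 had 1.05 ± 0.195 FPKM, Cacnb3 0.528 ± 0.0665, Cacna1h 0.239 ± 0.0280 and Cacna1c 0.118 ± 0.0439. In Reloading, Cacna2d4 stood lower in this order, at 0.245 ± 0.0455 FPKM (n = 3), within the spread of Cacna1c at 0.235 ± 0.0103 and below Cacna1h at 0.361 ± 0.0322 and Cacnb3 at 0.670 ± 0.0929. Cacna2d1, at 27.9 ± 2.12 FPKM in Reloading, stood below Cacnb1, at 37.5 ± 1.06.

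**Figure D1:**
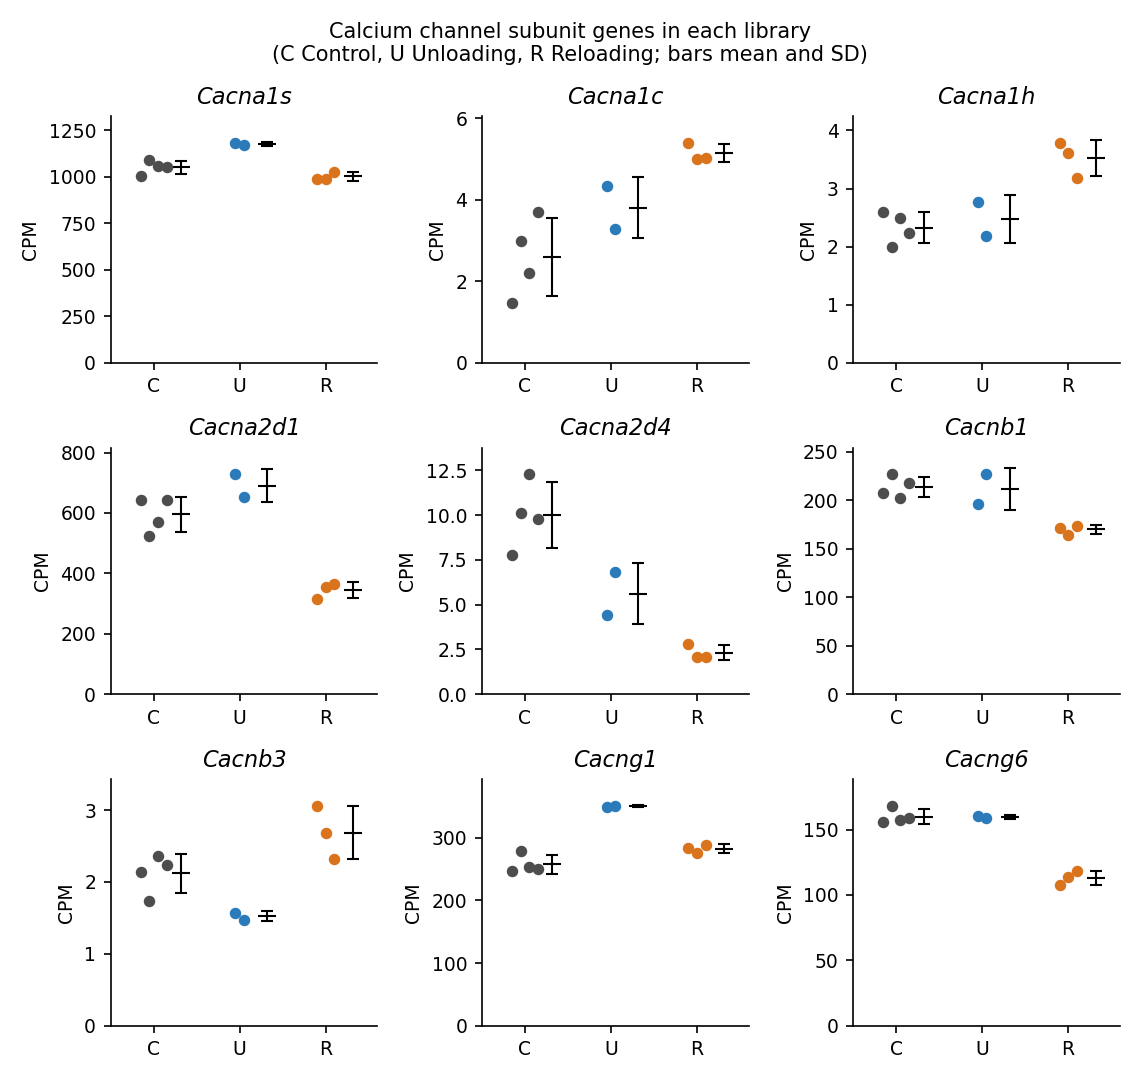
CPM (y axis, from 0) of the 9 subunit genes in each library of Control (C, n = 4), Unloading (U, n = 2) and Reloading (R, n = 3), with points for libraries and bars for the mean and SD. Cacna2d1, Cacnb1 and Cacng6 are lower in every Reloading library than in any other library, Cacng1 is highest in Unloading, and Cacna2d4 is lower in Unloading than in Control and lowest in Reloading.

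On reloading after 10 days of unloading, transcripts of 5 of the 8 counted subunit genes fell (Cacna1s, Cacna2d1, Cacnb1, Cacng1 and Cacng6), 1 rose (Cacnb3) and 2 did not pass the test (Cacna1c and Cacna1h). Of all tested genes, 19.0% were called lower and 18.5% higher in this comparison. Scaled by library totals only, 2 of the 8 were called lower (Cacna2d1 and Cacng6) and 3 higher (Cacna1c, Cacna1h and Cacnb3), where 82.8% of the calls over all genes were higher, beside 49.3% with TMM scaling. Without Control 2 and Reloading 1, the count was 5 lower and 0 higher, where 15.9% of all tested genes were called lower and 15.4% higher. Against Control, 3 of the 8 were lower in Reloading (Cacna2d1, Cacnb1 and Cacng6), 2 were higher (Cacna1c and Cacna1h) and 3 did not pass the test, where 21.3% of all tested genes were called lower and 22.1% higher. By library totals only, this count was 2 lower and 5 higher, where 80.2% of all calls were higher, beside 50.9% with TMM scaling. Without Control 2 and Reloading 1 it was 3 lower and 1 higher, where 17.3% of all tested genes were called lower and 17.1% higher. In Unloading against Control, 1 of the 8 genes was called, higher (Cacng1), where 4.40% of all tested genes were called higher and 5.50% lower. Without Unloading 1, 121 genes were called in that comparison over the whole table, beside 1470 with it. The comparisons of Reloading share the 3 Reloading libraries, and those with Control share the 4 Control libraries. Over the counted genes the median log2 fold change was -0.27 between Reloading and Unloading, 0.12 between Unloading and Control and 0.03 between Reloading and Control, beside 0.03, -0.00 and 0.01 over all tested genes.

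**Figure D2:**
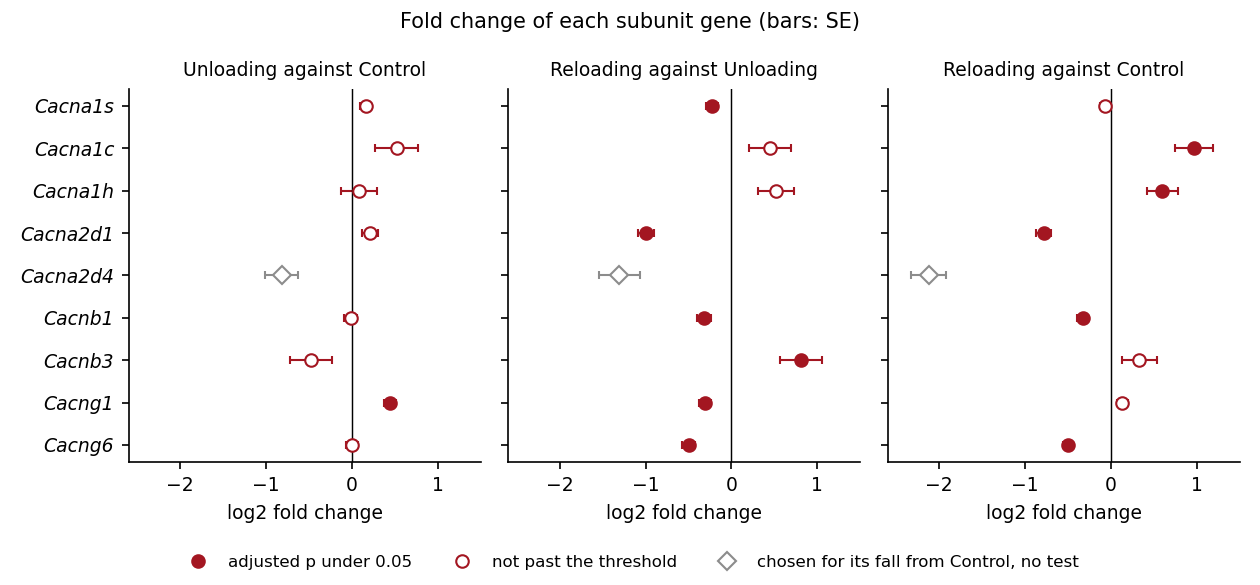
Log2 fold change (x axis, bars SE) of each subunit gene in the comparisons Unloading against Control, Reloading against Unloading and Reloading against Control. Filled points passed an adjusted p of 0.05, open points did not, and the open diamonds mark Cacna2d4, which was chosen for its fall from Control and is shown with no test, at -0.82, -1.30 and -2.13. Cacna2d1 and Cacng6 lie below 0 in both comparisons with Reloading, whereas Cacna1c and Cacna1h lie above 0.

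Cacna1s (ENSMUSG00000026407, GRCm38 chromosome 1, 136052750 to 136119822, plus strand) encodes the L-type pore and voltage sensor of skeletal muscle. Its CPM was 1006, 1088, 1055 and 1052 in Control, 1182 and 1167 in Unloading, and 989, 987 and 1026 in Reloading. Both Unloading libraries lay above all others, and the Control and Reloading libraries overlapped. The gene fell from Unloading to Reloading by 0.23 ± 0.07 (SE) on the log2 scale (adjusted p = 0.0156). Its log2 fold change was 0.16 ± 0.06 for Unloading against Control (adjusted p = 0.13, but 0.0475 with DESeq2) and -0.07 ± 0.06 for Reloading against Control (adjusted p = 0.351). These directions turned with library totals only, to 0.02 (adjusted p = 0.857) against Unloading and 0.17 (adjusted p = 0.0177) against Control, and without Unloading 1 the fall from Unloading had an adjusted p of 0.0651. The antisense gene Gm37759 shares 1309 exon bases with Cacna1s, 20.0% of its exons, and unstranded reads there cannot be told apart. Gm37759 had 11 to 30 counts in a library, so few of those reads were assigned to it. If reads on the shared bases went uncounted, the FPKM of Cacna1s, divided by all 6550 exon bases, is too low. Per-kilobase ratios to Cacna1s would then be too high in every group. This was not tested.

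Cacna1c and Cacna1h are pore genes of other cell types in large part. Cacna1c (ENSMUSG00000051331, chromosome 6, 118587240 to 119196890, minus strand) encodes the L-type pore of heart and smooth muscle. Its CPM was 1.47, 2.98, 2.21 and 3.69 in Control, 4.34 and 3.28 in Unloading, and 5.40, 4.99 and 5.03 in Reloading, so every Reloading library lay above every other library. The rise over Control was 1.95-fold (log2 0.96 ± 0.22, adjusted p = 0.00249), whereas the difference from Unloading was 0.45 ± 0.25 (adjusted p = 0.17) and that between Unloading and Control 0.52 ± 0.25 (adjusted p = 0.212). Cacna1h (ENSMUSG00000024112, chromosome 17, 25374285 to 25433783, minus strand) encodes a T-type pore, which opens at low voltage and is known from developing muscle, vessels and nerve. Its CPM was 2.59, 1.99, 2.50 and 2.23 in Control, 2.77 and 2.19 in Unloading, and 3.79, 3.62 and 3.18 in Reloading. The Reloading libraries again lay above all others, 1.51-fold over Control (log2 0.60 ± 0.18, adjusted p = 0.0152) and 0.52 ± 0.21 on the log2 scale over Unloading (adjusted p = 0.0649). Without Control 2 and Reloading 1, the rise over Control was 0.47 with an adjusted p of 0.114, without Reloading 1 alone its adjusted p was 0.053, and with DESeq2 it was 0.105. These values rest on few counts, between 13 and 76 read pairs per library for Cacna1c and between 23 and 50 for Cacna1h.

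Markers of several other cell types were higher in Reloading than in Unloading and than in Control. With TMM scaling, Cacna1c and Cacna1h were called higher against Control. Their Reloading libraries also lay above every Unloading library, without a call there. Over all tested genes, 18.5% were called higher and 19.0% lower in Reloading than in Unloading. The summed CPM of 6 smooth muscle markers was 120 to 146 in Control, 108 to 109 in Unloading and 177 to 199 in Reloading, and 5 of the 6 were called higher in Reloading than in Unloading. The sum of 6 endothelial markers was 146 to 167, 140 to 141 and 248 to 304 (5 of 6 called higher), that of 6 macrophage markers 47.7 to 59.2, 47.7 to 49.7 and 112 to 126 (6 of 6), and that of 5 Schwann cell markers 17.8 to 35.9, 22.6 to 30.2 and 59.1 to 78.4 (3 of 5). Of 5 fibroblast and fibro-adipogenic markers, 2 were higher and 2 lower than in Unloading, with sums of 426 to 618, 500.4 to 513 and 569 to 735. The 3 satellite cell markers did not pass the test, with sums of 23.5 to 29.4, 30.0 to 38.3 and 26.7 to 29.2. Against Control, the markers called higher were 4 of 6 for smooth muscle, 5 of 6 for endothelium, 4 of 6 for macrophages and 4 of 5 for Schwann cells. They were 2 of 5 for fibroblast and fibro-adipogenic cells and 0 of 3 for satellite cells. In that comparison no marker of these 6 types was called lower, and 22.1% of all tested genes were called higher. None of these markers was at 0 in all libraries of a group, and their part in the values of Cacna1c, Cacna1h and Cacnb3 was not tested.

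Cacna2d1 (ENSMUSG00000040118, chromosome 5, 15934691 to 16374511, plus strand) encodes the α2δ protein of the skeletal muscle channel, also known as the receptor of gabapentin. It had the largest fall among the 8 counted genes. Its CPM was 644, 525, 571 and 643 in Control, 728 and 652 in Unloading, and 316, 356 and 366 in Reloading, so the highest Reloading library was well below the lowest of the others. The fall was 1.99-fold from Unloading (log2 -0.996 ± 0.10, adjusted p = 2.98e-06) and 1.72-fold from Control (log2 -0.78 ± 0.08, adjusted p = 3.65e-06). In the other settings the log2 fold change lay between -1.08 and -0.75 against Unloading and between -0.85 and -0.54 against Control. Unloading and Control differed by 0.21 ± 0.09 (adjusted p = 0.163), which passed the threshold in 2 of 18 other settings.

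Cacna2d4 (ENSMUSG00000041460, chromosome 6, 119236526 to 119352407, plus strand) encodes an α2δ protein best known from photoreceptors of the retina, where its loss impairs vision. In muscle it was a minor α2δ transcript. Its CPM was 7.78, 10.1, 12.3 and 9.78 in Control, 4.42 and 6.83 in Unloading, and 2.82, 2.10 and 2.05 in Reloading, from 29 to 172 read pairs per library. The 3 groups did not overlap and descended in that order. The log2 fold change on reloading, for which the gene was chosen, was -1.30 ± 0.24 against Unloading and -2.13 ± 0.20 against Control. The log2 fold change between Unloading and Control, a comparison that shares the Control libraries used for that choice and so is also given with no test, was -0.82 ± 0.20. Over the 18 other settings it lay between -1.19 and -0.56, the latter without Unloading 1. Lrtm2 lies inside Cacna2d4 on the other strand and shares 0 exon bases with it. Cacna1c lies near Cacna2d4 on chromosome 6 and was, by contrast, higher in Reloading than in Control.

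The genes whose log2 CPM followed that of Cacna2d4 most closely over the 9 libraries, among 9872 genes with a symbol and a mean log2 CPM of at least 2, were Akr1b10 (Pearson r = 0.996), C030006K11Rik (0.990), Tle5 (0.987), Mrps9 (0.986) and Cpt2 (0.986). The most opposed were Plekha1 (-0.995), Arhgap35 (-0.987) and Fubp1 (-0.982). The 9 points share the 3 groups, so any gene that steps down from Control through Unloading to Reloading scores highly, and these values are a description. Akr1b10, an aldo-keto reductase, had CPM values of 39.7, 46.5, 49.8 and 44.1 in Control, 27.9 and 34.6 in Unloading, and 22.4, 20.9 and 19.6 in Reloading, a likeness for which it was picked. Among the subunit genes, r with Cacna2d4 was 0.88 for Cacnb1, 0.87 for Cacng6, 0.74 for Cacna2d1 and 0.35 for Cacna1s, and -0.86 for Cacna1h, -0.75 for Cacna1c, -0.42 for Cacnb3 and -0.28 for Cacng1.

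Cacnb1 (ENSMUSG00000020882, chromosome 11, 98001508 to 98023034, minus strand) encodes the β protein of the skeletal muscle channel, which is required for the pore to reach the triad. Its CPM was 207, 227, 203 and 218 in Control, 196 and 227 in Unloading, and 172, 164 and 174 in Reloading. All Reloading libraries lay below all others, while Control and Unloading overlapped (log2 fold change -0.01 ± 0.08, adjusted p = 0.934). The fall was 1.25-fold from Unloading (log2 -0.32 ± 0.08, adjusted p = 0.00648) and 1.26-fold from Control (log2 -0.33 ± 0.07, adjusted p = 0.00121). Both calls were lost with library totals only, at log2 -0.07 (adjusted p = 0.492) and -0.09 (adjusted p = 0.262), and without Unloading 2 the adjusted p against Unloading was 0.107. The antisense gene Gm11629, with 0 counts in every library, shares 80 exon bases with it.

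Cacnb3 (ENSMUSG00000003352, chromosome 15, 98630840 to 98644529, plus strand) encodes a β protein of neurons, smooth muscle and lymphocytes. Its CPM was 2.14, 1.74, 2.36 and 2.23 in Control, 1.57 and 1.48 in Unloading, and 3.06, 2.68 and 2.32 in Reloading. Unloading was lowest, and Reloading overlapped with Control. The rise from Unloading was 1.76-fold (log2 0.81 ± 0.24, adjusted p = 0.0168), on 19 to 38 read pairs per library. It passed the threshold in 12 of 18 other settings, with adjusted p-values of 0.0595 without Unloading 1, 0.107 without Unloading 2, 0.0512 without Reloading 1, 0.0525 without Control 2 and Reloading 1 and 0.113 with DESeq2. Its log2 fold change was -0.48 ± 0.24 for Unloading against Control (adjusted p = 0.228) and 0.33 ± 0.20 for Reloading against Control (adjusted p = 0.197, but 0.0279 with library totals only).

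The γ genes moved in different ways. Cacng1 (ENSMUSG00000020722, chromosome 11, 107703218 to 107716522, minus strand) encodes the γ protein of the skeletal muscle channel, which limits its calcium current. Its CPM was 247, 280, 253 and 251 in Control, 349 and 352 in Unloading, and 284, 275 and 289 in Reloading, and both Unloading libraries stood above the other 7. It rose 1.36-fold with unloading (log2 0.44 ± 0.07, adjusted p = 0.00196), a call that held in 18 of 18 other settings, and fell 1.24-fold on reloading (log2 -0.31 ± 0.07, adjusted p = 0.00409). Reloading and Control differed by 0.13 ± 0.06 (adjusted p = 0.0975). The fall on reloading was -0.06 (adjusted p = 0.507) and the difference from Control 0.37 (adjusted p = 0.000139) with library totals only. Without Control 2, the difference from Control was 0.17 (adjusted p = 0.0465).

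Cacng6 (ENSMUSG00000078815, chromosome 7, 3424195 to 3435667, plus strand) encodes a close relative of the Cacng1 protein that is known to reduce T-type currents in muscle cells. Its CPM was 156, 168, 157 and 159 in Control, 161 and 159 in Unloading, and 108, 113 and 118 in Reloading. Control and Unloading overlapped (log2 fold change -0.00 ± 0.07, adjusted p = 0.991), and every Reloading library was below them. The fall was 1.41-fold from Unloading (log2 -0.50 ± 0.07, adjusted p = 9.32e-05) and 1.42-fold from Control (log2 -0.50 ± 0.06, adjusted p = 1.34e-05), and both calls held in 18 of 18 other settings.

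Ratios of transcripts within a library do not depend on the scaling between libraries, and the mean ratio of each skeletal muscle partner to Cacna1s differed between Control and Reloading. The absolute size of these ratios depends on the exon length used for Cacna1s, as given with that gene. Calculated per kilobase, Cacna2d1 stood at 0.300 ± 0.0375 (SD, n = 4) of Cacna1s in Control, 0.310 ± 0.0215 (n = 2) in Unloading and 0.182 ± 0.0119 (n = 3) in Reloading, where the highest value, 0.190, was below the lowest of the other groups, 0.254. Cacng6 stood at 0.505 ± 0.00946 of Cacna1s in Control, 0.451 ± 0.000146 in Unloading and 0.374 ± 0.0114 in Reloading, with no overlap. The Cacnb1 ratio was 0.294 ± 0.0109, 0.261 ± 0.0292 and 0.246 ± 0.00517, and the Reloading range of 0.241 to 0.251 overlapped with that of Unloading but not with that of Control. Cacng1 had its lowest ratio in Control instead, at 1.29 ± 0.0434 of Cacna1s, with 1.57 ± 0.0219 in Unloading and 1.48 ± 0.0234 in Reloading. Between the γ genes, Cacng6 was 0.393 ± 0.00878 of Cacng1 in Control, 0.288 ± 0.00394 in Unloading and 0.253 ± 0.0114 in Reloading, and the groups did not overlap. These ratios were not tested. An exact two-sided permutation test of 3 against 4 libraries cannot give a p under 0.0571, and no other kind of test was applied to them.

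**Figure D3:**
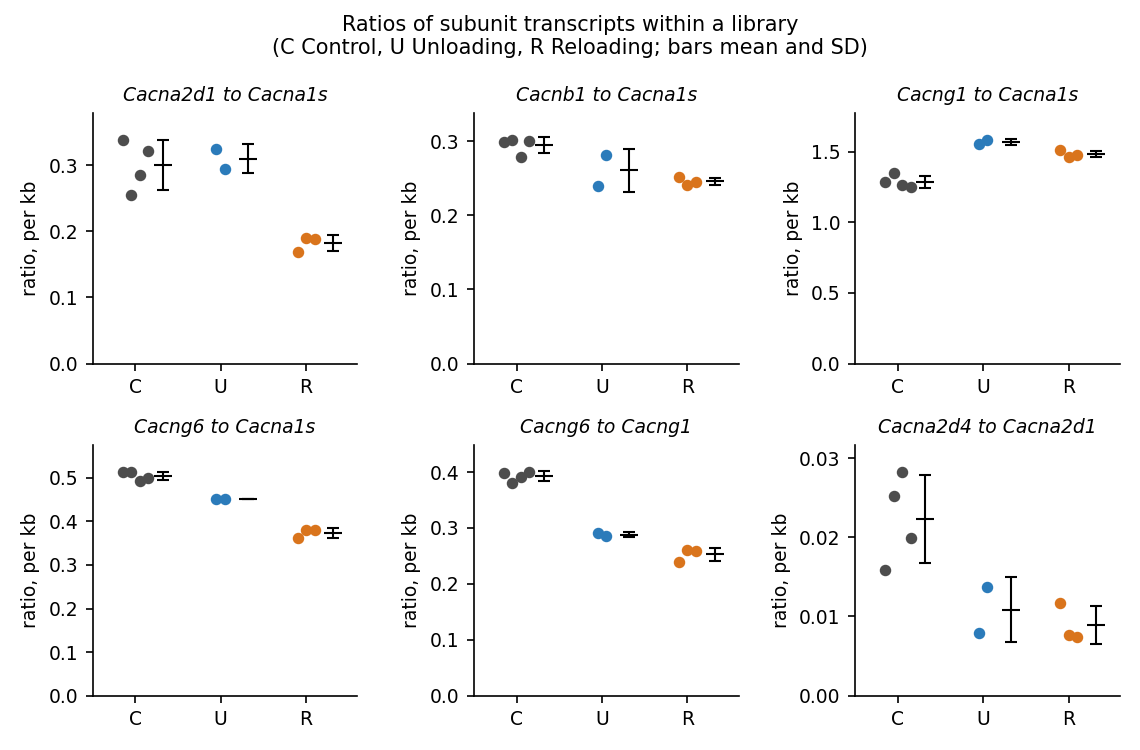
Ratio of subunit transcripts per kilobase of exon (y axis, from 0) within each library of Control (C), Unloading (U) and Reloading (R), with points for libraries and bars for the mean and SD. The ratios of Cacna2d1 and Cacng6 to Cacna1s are lowest in Reloading, at 0.182 and 0.374, whereas that of Cacng1 is lowest in Control, at 1.29.

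In the pore, α2δ and β classes, a single gene held nearly all of the transcripts, whereas the γ class was divided mainly between Cacng1 and Cacng6. Cacna1s accounted for 99.5% ± 0.0499 (SD, n = 4) of the pore transcripts per kilobase in Control, 99.5% ± 0.00683 in Unloading and 99.2% ± 0.0670 in Reloading. Cacna2d4 accounted for 2.17% ± 0.527 of the α2δ transcripts in Control, 1.07% ± 0.398 in Unloading and 0.879% ± 0.234 in Reloading, and the Unloading and Reloading ranges overlapped. Since Cacna2d1 fell as well, the ratio of Cacna2d4 to Cacna2d1 was 0.0108 ± 0.00409 in Unloading and 0.00892 ± 0.00241 in Reloading, within the spread of each other. Cacnb1 made up 98.6% ± 0.188 of the β transcripts in Control, 98.8% ± 0.287 in Unloading and 97.8% ± 0.186 in Reloading, with Cacnb3 at 0.810% ± 0.117 in Unloading and 1.75% ± 0.249 in Reloading. Cacng1 held 69.4% ± 0.588 of the γ transcripts in Control, 75.4% ± 0.131 in Unloading and 78.1% ± 0.812 in Reloading, with Cacng6 at 27.3%, 21.7% and 19.7%.

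Of the 17 other subunit genes of the family, 6 passed the filter on low counts. Cacng7, which encodes a γ protein better known from brain synapses and lies near Cacng6 on chromosome 7 (3332955 to 3368221), was the only one of the 6 called in a comparison with Reloading. Over all tested genes, 19.0% were called lower in Reloading than in Unloading and 21.3% lower than in Control, so a single call among 6 genes is near those shares. It fell by 0.76 ± 0.11 on the log2 scale from Unloading (adjusted p = 0.000113) and by 0.65 ± 0.10 from Control (adjusted p = 8.41e-05), and its log2 fold change for Unloading against Control was 0.10 ± 0.10 (adjusted p = 0.573). Its CPM was 22.4 and 28.6 in Unloading and 14.3, 15.8 and 15.2 in Reloading. Cacna1a, Cacna1g, Cacna2d3, Cacnb2 and Cacnb4 did not pass the test in any of the 3 comparisons by edgeR. Cacna1a, a neuronal pore gene, was called higher in Reloading than in Unloading without Unloading 2 (adjusted p = 0.0134), and Cacna1g, a T-type pore gene, was called higher than in Control without Control 3 (adjusted p = 0.0301). Scaling by library totals only also gave calls, for Cacna1a against Unloading (adjusted p = 0.0329) and Control (adjusted p = 0.0271) and for Cacna1g against Control (adjusted p = 0.0343). In Unloading against Control, 0 of the 6 were called by edgeR or DESeq2, and 0 had an unadjusted p under 0.05. In that comparison 4.40% of all tested genes were called higher and 5.50% lower. The other 11 genes were not tested.

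Of 16 genes that act on the channel, 13 were tested. On reloading, 3 of the 13 were higher and 7 lower than in Unloading, and 5 were higher and 5 lower than in Control, with median log2 fold changes of -0.22 and -0.06. Over all tested genes, 18.5% were higher and 19.0% lower than in Unloading and 22.1% higher and 21.3% lower than in Control. With library totals only, these counts were 6 higher and 2 lower, and 6 higher and 4 lower. Without Unloading 2, which left 1 library in that group, fewer were called lower than in Unloading, as was so over all tested genes. The largest rise was that of Rrad, a Ras-like GTPase that binds the β protein and reduces the calcium current. Its CPM was 2.37, 2.74, 2.21 and 1.89 in Control, 1.20 and 3.28 in Unloading, and 52.1, 38.8 and 32.8 in Reloading. The lowest Reloading library, at 32.8, lay far above the highest of the others, at 3.28, with a rise of 17.4-fold over Unloading (log2 4.12 ± 0.27, adjusted p = 7.09e-08) and of 17.8-fold over Control (log2 4.16 ± 0.22, adjusted p = 2.84e-09). Leaving out Unloading 2 raised the log2 fold change over Unloading to 5.08. Gem and Rem1 encode GTPases of the same kind. Gem rose by 1.05 ± 0.30 over Unloading (adjusted p = 0.0125) and by 0.69 ± 0.25 over Control (adjusted p = 0.0346), with 9 to 41 read pairs per library. The second of these calls held in 10 of 18 other settings, with a highest adjusted p of 0.134. Among the settings that lost it, the adjusted p was 0.0527 with the description's replicate numbers as a block, 0.0842 without Control 1, 0.0519 without Control 4, 0.114 without Reloading 1 and 0.127 without Reloading 2. The call of Gem over Unloading held in 15 of 18 other settings, and its adjusted p was 0.0556 with DESeq2. Rem1 rose by 1.35 ± 0.29 over Control (adjusted p = 0.00144) and had a log2 fold change of 0.80 ± 0.31 over Unloading (adjusted p = 0.0548), which passed the threshold in 8 of 18 other settings.

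Stac3, an adaptor that the skeletal muscle pore needs to reach the membrane and to couple to contraction, fell on reloading. Its CPM was 285, 300, 286 and 293 in Control, 252 and 290 in Unloading, and 203, 206 and 231 in Reloading, so every Reloading library lay below all others, while Control and Unloading overlapped. The fall was 0.34 ± 0.08 on the log2 scale from Unloading (adjusted p = 0.00437, but 0.0789 without Unloading 2 and 0.345 with library totals only) and 0.45 ± 0.07 from Control (adjusted p = 0.000119). Prkar1a, the regulatory subunit of the protein kinase A that acts on the channel, rose by 0.55 ± 0.08 over Unloading and 0.50 ± 0.07 over Control. Prkaca, a catalytic subunit of that kinase, fell instead, by 0.22 ± 0.08 from Unloading (adjusted p = 0.0353) and by 0.42 ± 0.06 from Control (adjusted p = 9.02e-05). The other settings are not given for Prkaca. Ahnak, a large scaffold protein that binds the β subunit, was the only tested regulator called in Unloading against Control, where it rose by 0.56 ± 0.13 (adjusted p = 0.0129). Without Unloading 1 that rise had an adjusted p of 0.354.

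Among 19 partners of the channel in excitation-contraction coupling and calcium storage, all of which were tested, 8 were lower and 2 higher in Reloading than in Unloading, and 12 were lower and 1 higher in Reloading than in Control. The median log2 fold changes were -0.28 and -0.27. The shares of all tested genes were those given for the regulators. With library totals only, the counts were 4 lower and 5 higher, and 4 lower and 3 higher. Trdn, which encodes triadin of the junctional sarcoplasmic reticulum, fell most. Its CPM was 2278, 1846, 1830 and 2293 in Control, 2683 and 2434 in Unloading, and 905, 1078 and 1162 in Reloading. The fall was 2.44-fold from Unloading (log2 -1.29 ± 0.12, adjusted p = 1.57e-06) and 1.97-fold from Control (log2 -0.98 ± 0.10, adjusted p = 2.76e-06). Ryr1, the ryanodine receptor gated by the Cacna1s protein, fell by 0.28 ± 0.07 from Unloading (adjusted p = 0.00672) and by 0.19 ± 0.06 from Control (adjusted p = 0.0205). Neither fall of Ryr1 was called with library totals only, and its difference from Control then turned to 0.05. The fall from Control was called in 13 of 18 other settings, with adjusted p-values of 0.0535 without Control 3, 0.0577 without Control 4 and 0.101 without Reloading 2.

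Jph1, which ties the tubule to the reticulum, fell by 0.60 ± 0.09 from Unloading and by 0.36 ± 0.07 from Control, and the calcium buffers Casq1 and Pvalb fell by 0.39 ± 0.09 and 0.65 ± 0.08 from Unloading. By library totals only, the fall of Jph1 from Control was -0.12 (adjusted p = 0.165) and that of Casq1 from Unloading -0.14 (adjusted p = 0.183). Atp2a1, the calcium pump of fast fibres, rose 1.26-fold with unloading (adjusted p = 0.00767, but 0.108 without Unloading 1) and fell 1.56-fold on reloading (adjusted p = 1.17e-05). It was thus higher in Unloading than in either other group, as Cacng1 was. Jph2 was the only partner called lower in Unloading than in Control (log2 -0.32 ± 0.08, adjusted p = 0.016). That call was lost without Unloading 1, and the log2 fold change lay between -0.45 and -0.205 in the other settings. Dysf, which encodes dysferlin of membrane repair and the tubules, rose 1.98-fold over Unloading and 2.11-fold over Control (adjusted p = 5.16e-07 and 1.36e-08), and Cav3, the muscle caveolin, rose by 0.40 ± 0.09 over Unloading (adjusted p = 0.00336, but 0.0624 without Unloading 1). Stim1, the sensor of store-operated calcium entry, fell by 0.41 ± 0.08 from Unloading, a call that was lost by library totals only (-0.17, adjusted p = 0.0739). Fibre markers fell and markers of several other cell types rose in Reloading, and their part in the values of the coupling partners was not tested.

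Of 15 genes that act downstream of calcium, 14 were tested, and 3 were higher and 6 lower in Reloading than in Unloading, and 4 higher and 5 lower than in Control, beside the same shares of all tested genes. With library totals only, the counts were 5 higher and 1 lower, and 6 higher and 3 lower. Without Unloading 1, which left 1 library in that group, fewer were called in both directions against Unloading, as was so over all tested genes. The median log2 fold changes were -0.03 and -0.09. Rcan1, a feedback inhibitor and known target of calcineurin signalling, had a CPM of 75.8, 79.8, 94.0 and 76.7 in Control, 73.7 and 100 in Unloading, and 490, 470 and 352 in Reloading. It rose 5.02-fold over Unloading (log2 2.33 ± 0.16, adjusted p = 7.09e-08) and 5.35-fold over Control (log2 2.42 ± 0.12, adjusted p = 1.73e-09). Its relative Rcan2 fell in steps, by 0.63 ± 0.11 with unloading (adjusted p = 0.0043) and by 0.41 ± 0.12 on reloading (adjusted p = 0.0147), to 1.04 ± 0.10 below Control. The step on reloading had an adjusted p of 0.395 without Unloading 2 and of 0.291 with library totals only, and the step with unloading one of 0.0999 without Unloading 1. Ppp3cb, a catalytic subunit of calcineurin, fell by 0.61 ± 0.09 from Unloading. Camk2a, a subunit of a calcium-dependent kinase, fell by 0.42 ± 0.07 from Unloading (-0.17 with an adjusted p of 0.0588 by library totals only), whereas Camk2d, a further subunit of that kinase, rose by 0.57 ± 0.09, and Nfatc2, a transcription factor activated by calcineurin, rose by 0.53 ± 0.13 (adjusted p = 0.00516, but 0.0797 without Unloading 1).

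**Figure D4:**
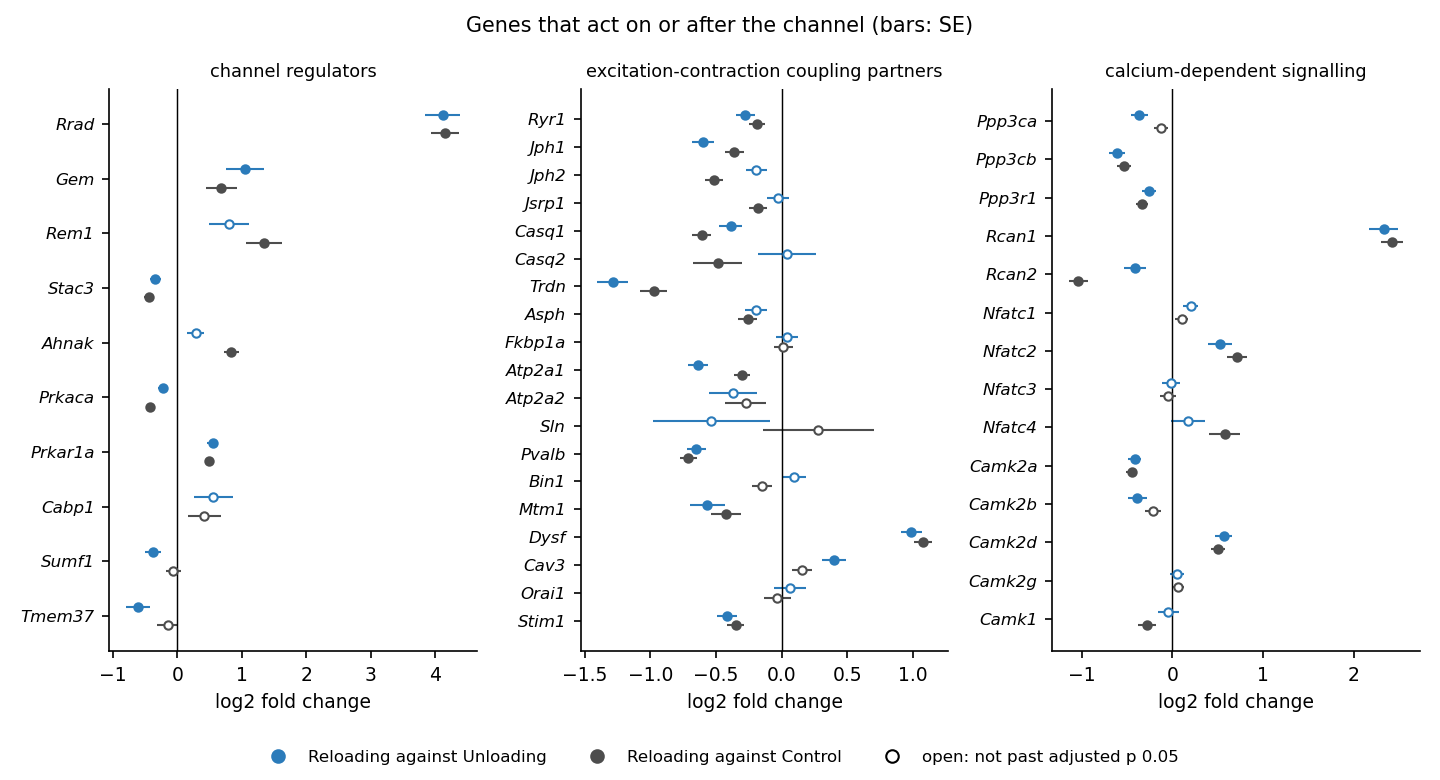
Log2 fold change (x axis, bars SE) of genes that act on the channel (10 of those tested), of the genes tested in excitation-contraction coupling (19) and in calcium-dependent signalling (14), for Reloading against Unloading and Reloading against Control, with open points for genes not past an adjusted p of 0.05. Rrad at 4.12 and 4.16 and Rcan1 at 2.33 and 2.42 lie far to the right of the others, and Trdn at -1.29 and -0.98 lies lowest among the coupling partners.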

How the data were processed

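Polyadenylated RNA of 9 gastrocnemius samples was sequenced. The labels give paired-end reads, whereas the paper's methods describe single reads, and the labels were followed. Per the labels and file header, the authors aligned reads with STAR 2.7.3a to GRCm38.p6 and obtained counts of read pairs for each gene with featureCounts 2.0.3 from the Ensembl release 102 annotation, without regard to strand. The deposited table holds raw counts, unfiltered, and the summed exon length. Deposited DESeq2 tables hold the authors' fold changes, standard errors and p-values, which were not used; one supplied the gene symbols.

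Genes were kept by filterByExpr (minimum count 10, minimum total 15). All 9 libraries entered 1 quasi-likelihood fit (edgeR 4.0.16, R 4.3.3) with TMM scaling and group as the only term, and p-values were adjusted over 14851 genes. Each two-sided comparison used the F-test, and SE were derived from it. CPM were divided by exon length in kilobases for FPKM, log2 CPM used a prior count of 2, and group values are mean ± SD. A read pair was worth 0.0546 to 0.113 CPM. The script was tested on simulated data. Alternatives were other scalings, DESeq2 1.42.0, no filter, a robust fit, only the groups compared, replicate blocks and leaving out libraries.

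The members and gene lists were chosen with earlier results of these data known. The planned count of members in Unloading against Control included Cacna2d4, which the report leaves out there too. Named genes are the 9 members, genes with overlapping exons, the 5 most and 3 least similar to Cacna2d4 by Pearson r, and listed genes with the largest called changes or a known direct part in the channel. The labels name each sample as a replicate without saying that it was a separate animal, so p-values cover the spread between libraries. Replicate numbers in the descriptions (2, 3 and 4 of Control and Reloading) paired those libraries by the rule used here, with correlations of deviations of 0.361, 0.143 and 0.155; numbers in the titles did not (-0.191, -0.201 and -0.0165). What a shared description number stands for is not given in the sources used here. Promoter windows came from RefSeq (GRCm38.p6) and were searched on both strands. A gene among the channel regulators is counted with its list but not reported here.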

Additional observations from a re-analysis of the deposited data

Results flagged for a closer look

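Within the 4 Control libraries, 3 of 71 sets of values had a library far from the other 3 by Dixon's gap criterion, where chance gives about 1 in 20. Gem had 1.01 CPM in Control 1 against 1.72 to 1.86 in the others. Ppp3r1, the regulatory subunit of calcineurin, had 165 CPM in Control 1 against 156 to 157. The ratio of Cacnb1 to Cacna1s per kilobase was 0.278 in Control 3 against 0.298 to 0.301. Groups of 2 and 3 libraries were not examined in this way.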

How the results depend on the processing

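The falls of Cacna2d1 and Cacng6 on reloading kept their direction and call in 18 of 18 other settings, as did the rise of Cacng1 with unloading and that of Cacna1c over Control. With library totals only, the direction of Cacna1s turned (0.0167 against Unloading, 0.17 against Control), as did that of Ryr1 against Control (0.0539) and Jph2 against Unloading (0.0545). Differences near 0 in Unloading against Control changed sign. Cacng6 had 0.00292 with DESeq2's size factors, 0.0106 with DESeq2, 0.0345 without the filter, 0.00398 and 0.00902 with the title's and the description's replicate block, 0.0238 without Control 2 and Reloading 1, and -0.0157 to 0.0223 with 1 library left out. Cacnb1 had 0.0239 without the filter, 0.0162 without Control 2 and Reloading 1, and -0.125 (without Unloading 2) to 0.0903 (without Unloading 1) with 1 library left out. The same range was -0.0834 to 0.253 for Cacna1h and -0.0895 to 0.267 for Cacng7. The cause was not tested.

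The rise of Cacnb3 on reloading had an adjusted p of 0.0579 with the description's replicate block, and the fall of Ryr1 from Control one of 0.0795 with the title's. Counts of called genes in Unloading against Control were 1 of 9 for the members with the title's replicate block and 2 of 9 with group as the only term (both with Cacna2d4 counted). Cacna1s also passed the threshold in 1 of 18 other settings and Cacna2d1 in 2 of 18. The counts were 2 for the regulators without the filter and with either replicate block. They were 4 for the coupling partners with DESeq2 and with the description's replicate block, 6 for these partners without the filter, and 2 for calcium signalling without the filter. Of all tested genes, 5.27% were called higher and 5.36% lower with DESeq2, and 3.12% and 2.76% without the filter. These shares were 3.20% and 3.82% with the title's replicate block and 4.59% and 5.37% with the description's. With library totals only, 2 other subunit genes were called against Unloading and 3 against Control, and 7 coupling partners against Control. The description's replicate block, which paired Reloading with Control, lost the call of Gem against Control. Beyond the values given above, it changed no other call of a named gene in that comparison, with Prkaca left aside. With it, 6632 of all genes were called in Reloading against Control, and 6456 without it. All genes called with DESeq2 were 4385, 1315 and 5200 for Reloading against Unloading, Unloading against Control and Reloading against Control, beside 5562, 1470 and 6456.

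Leaving out 1 library at a time, the members called were 4 to 6 for Reloading against Unloading, 1 to 2 for Unloading against Control (Cacna2d4 counted) and 4 to 6 for Reloading against Control. In the same order, the ranges were 1 to 2, 0 and 1 to 2 for the other subunits, 6 to 11, 0 to 1 and 9 to 10 for the regulators, 10 to 12, 0 to 3 and 10 to 13 for the coupling partners, and 5 to 9, 0 to 2 and 7 to 10 for calcium signalling. The lowest of these came without Unloading 2 for the regulators and without Unloading 1 for calcium signalling and for Unloading against Control. Calls over all tested genes fell in those settings too. Without Unloading 2 or Control 3, 2 other subunits were called.

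The FPKM summed over the 9 genes, with library totals only, was 515 in Control, 606 in Unloading and 562 in Reloading, beside 545, 644 and 503 with TMM scaling, so the order of Control and Reloading turned. As shares of CPM, in the order Control, Unloading and Reloading, Cacna1s held 99.1%, 99.0% and 98.5% of its class, Cacnb1 98.4%, 98.5% and 97.5%, and Cacng1 58.3%, 65.3% and 68.7%. By Spearman's rho, 3 of the 8 genes most or least like Cacna2d4 were again among them. Unloading rests on 2 libraries, so its spread is borrowed from the other groups, and where 1 of them was left out the other was assumed to vary like those groups. Depth limits Cacna1c, Cacna1h, Cacnb3, Gem and Rem1, with fewer than 80 read pairs per library.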
